A study of Caenorhabditis elegans with 4 samples.

Results

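Broad regions of the transcription factor GEI-11 were selected on their called width, as the rows of the combined region list, on the 6 nuclear chromosomes, that spanned 750 bp or more. There were 580 of them among 6192 combined regions, or 9.37% (95% exact Clopper-Pearson interval 8.65 to 10.1%). Chromatin immunoprecipitation followed by sequencing (ChIP-seq) had been done on whole hermaphrodite Caenorhabditis elegans larvae of the third stage (L3), grown at 20 degrees Celsius, with 2 libraries of anti-GFP ChIP and 2 of input DNA, numbered replicate 1 and 2. Both groups came from strain OP179. It carries the transgene wgIs179, which holds unc-119(+) and gei-11::TY1::EGFP::3xFLAG, in an unc-119(ed3) III background, so the tag was precipitated with goat antibodies raised against GFP and the input was the same kind of chromatin before precipitation. Per the labels the strain was made by bombardment and the fusion is made in the pattern of gei-11. No untagged strain was analysed here. Whole worms were used, so the tissues in which a region is bound cannot be told apart. The labels do not say that the replicates came from separate cultures, so differences between the replicate lists may be technical.

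GEI-11, also named SNPC-4, is the DNA-binding subunit of the small nuclear RNA activating protein complex. This complex sits upstream of small nuclear RNA genes and some other short noncoding RNA genes and is needed to start their transcription. In the worm germline SNPC-4 is also needed for transcription of piRNA genes, the sources of the small RNAs that silence foreign sequence, most of which lie in wide domains on chromosome IV. A factor bound at a single short site usually gives a ChIP-seq region of a few fragment lengths, while neighbouring sites, or binding spread along the DNA, give wider ones. The deposited lists hold called regions, not the signal along them, so a broad region here is a width that was called and not a profile that was seen.

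Depth was 3773496 reads for ChIP replicate 1 and 3560372 for ChIP replicate 2, and the inputs had 8331974 (replicate 1) and 7222788 (replicate 2). Uniquely mapped ChIP reads, which the sample sheet gives in rounded form, ran the other way, with 2500000 in replicate 1 and 2800000 in replicate 2. The replicate 1 list held 4368 regions and the replicate 2 list 2617. The combined list was called on both ChIP libraries together and the replicate lists on 1 ChIP library each, so the lists share reads and a match between them is not independent evidence. Since the width in the combined list chose the regions, widths, strengths and calls of the same reads are given below as descriptions, with no test. Strength is −log10 of the q-value that the authors deposited for a region, and ranks regions within a list. Regions under 750 bp are called narrower regions. Each interval given with a share is an exact 95% Clopper-Pearson interval; these cover counting error only and take regions as independent, which neighbours are not.

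Broad regions were few but held much of the called sequence. They covered 0.688 Mb of the 2.54 Mb in the combined list, or 27.1%. Their median width was 983 bp, with quartiles of 840 and 1267 bp, against a median of 325 bp and quartiles of 217 and 426 bp for the 5612 narrower regions. Widths thinned out quickly above the threshold. There were 271 regions of 1000 bp or more, 94 of 1500 bp or more, 46 of 2000 bp or more and 12 of 3000 bp or more, and 2 passed 5000 bp. No break marked the threshold itself, with 89 regions from 750 to under 800 bp and 118 from 700 to under 750 bp.

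The regions next to the threshold show how little it separates. Just inside it were regions of 750 bp on chromosome X from 2553370 to 2554119, with a −log10 q of 5.62, and of 750 bp on chromosome II, 13678399 to 13679148, with 2.26. A region of 751 bp on chromosome III from 7358572 to 7359322 had 5.47. Just outside it lay regions of 749 bp on chromosome V from 8348739 to 8349487, with 114, of 748 bp on chromosome IV from 866802 to 867549, with 129, and of 748 bp on chromosome I from 12550932 to 12551679, with 5.01. Strong and weak regions thus stood on the narrow side within a few bases of the threshold.

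Strength ranged widely among broad regions, and its median and quartiles were higher than among narrower regions. Their −log10 q ran from 2.02 to 288, with a median of 12.9 and quartiles of 6.69 and 25.6, while narrower regions ran from 2.00 to 142 with a median of 3.86 and quartiles of 2.67 and 6.62. Among the broad regions, width and strength were only loosely related (Spearman's rho 0.347 over 580 regions, a description). From the narrowest to the widest of 5 width classes (limits at 1000, 1500, 2000 and 3000 bp), the median −log10 q was 10.0, 16.1, 17.9, 28.9 and 41.8. When all combined regions were ranked by q and split into 10 strength classes of near equal size, 41.3% of class 1, the strongest, were broad, 18.1% of class 2, 11.3% of class 3 and 7.11% of class 4. The share kept falling to 0.808% in class 10. Broad regions were therefore present but rare among weak regions, with 98 of the 3715 regions in classes 5 to 10 together (2.64%). Among the 580 broad regions these 98 were a larger part.

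**Figure D1:**
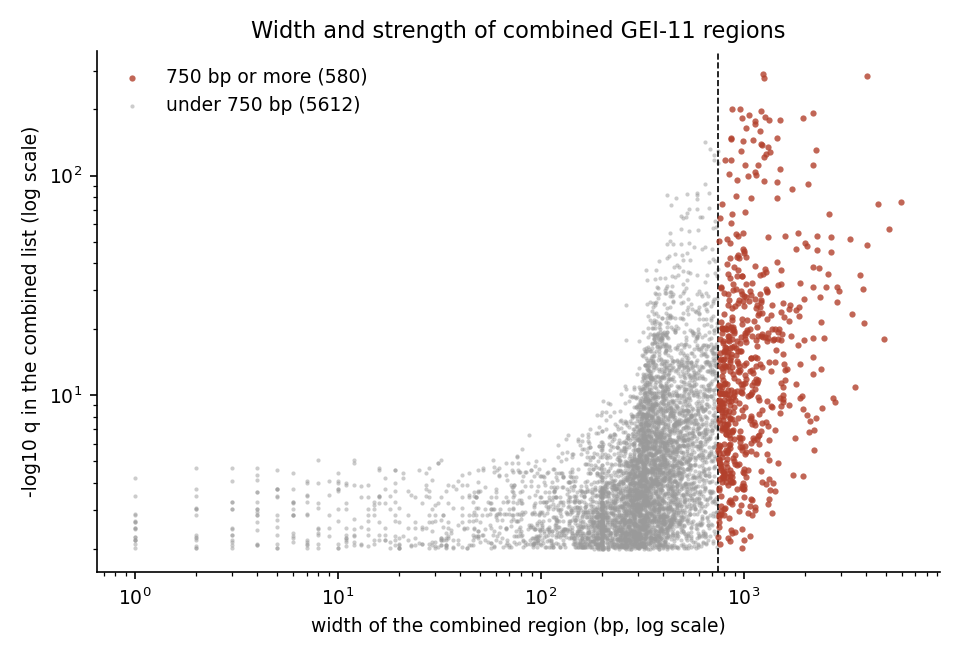
Each point is 1 combined region, with its width in bp on the x axis and its −log10 q in the combined list on the y axis, both on log scales; the dashed line marks 750 bp. The 580 broad regions span strengths from 2.02 to 288.

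The widest regions were not always the strongest. The widest region lay on chromosome V from 6224129 to 6230109, spanned 5981 bp, and had a −log10 q of 76.0 and rank 63. The next lay on chromosome I from 5375085 to 5380272, with 5188 bp, a −log10 q of 57.4 and rank 84. A region of 4883 bp on chromosome I from 7080682 to 7085564 reached only 18.1, at rank 461. By contrast the strongest combined region analysed here, with a −log10 q of 288, was 1240 bp wide (chromosome II, 13833997 to 13835236). The third to the fifth by strength were 1255 bp wide on chromosome II from 14803997 to 14805251 (277), 955 bp on chromosome III from 10989193 to 10990147 (202) and 873 bp on chromosome II from 5844392 to 5845264 (201). The region of chromosome IV from 9510432 to 9514460 was high on both scales, at 4029 bp and a −log10 q of 285.

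Broad regions were found on every nuclear chromosome, and none of the 97 full 1 Mb bins was without one. Chromosome II held 116, X 107, V 99, III 89, I 87 and IV 82. Their density was 7.60 per Mb on chromosome II, 6.47 on III, 6.07 on X, 5.77 on I, 4.74 on V and 4.69 on IV. The widest region of each chromosome was 5981 bp on V, 5188 bp on I, 4609 bp on IV, 4042 bp on III, 3536 bp on X and 3351 bp on II, while the median width stayed between 958 and 1000 bp on all 6. When each chromosome was cut into 3 equal parts by length, the middle parts held 235 broad regions (40.5%, interval 36.5 to 44.6%) and the left and right parts 155 (26.7%) and 190 (32.8%). Of the narrower regions the middle parts held 34.1% (32.8 to 35.3%), the left parts 27.4% and the right parts 38.5%. The chromosomes differed in this. The middle part held the most broad regions on each chromosome except X, where the right part held 44 and the middle 33. Of the 2163 narrower regions in right parts, 778 lay on chromosome IV.

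Chromosome IV was the place where broad and narrower regions parted most. It carried 14.1% of the broad regions (82 of 580, interval 11.4 to 17.2%) and 31.6% of the narrower ones (1774 of 5612, interval 30.4 to 32.8%), with 17.5% of the called length and 30.0% of all combined regions. Of its 1856 combined regions 4.42% were broad (3.53 to 5.45%), while the shares on the other chromosomes ran from 9.58% on III to 12.9% on X. The replicate lists gave nearly the same share. Of the 312 replicate 1 regions of 750 bp or more 45 lay on chromosome IV (14.4%), against 30.3% of all regions of that list, and of the 260 in replicate 2 37 did (14.2%), against 28.9%.

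On chromosome IV broad regions came with strength. In strength classes 1 to 4 it had 82 broad regions among 713 (11.5%, interval 9.25 to 14.1%), against 400 among 1764 on the other chromosomes (22.7%, 20.7 to 24.7%). In classes 5 to 10 it had 0 broad regions among 1143, which allows a share of up to 0.262% by 3 counts of the total (exact interval 0 to 0.322%), against 98 among 2572 elsewhere (3.81%, 3.10 to 4.62%). Each other chromosome had some of these weak broad regions, from 13 on chromosome I to 27 on X. Weak regions of any width had a median of 170 bp on chromosome IV and 314 bp elsewhere, although median strength in these classes was 3.13 on chromosome IV and 2.91 elsewhere. The median −log10 q of broad regions was 20.1 on chromosome IV and 10.9 elsewhere.

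The piRNA domains themselves held few broad regions. From 4.5 to 7 Mb of chromosome IV, an approximate position of the left domain, 7 of 257 combined regions were broad (2.72%, interval 1.10 to 5.53%), and from 14 to 17 Mb, within the right domain, 10 of 509 were (1.96%, 0.946 to 3.58%). Between these intervals the share was 6.06% (42 of 693) and left of them it was 6.32% (22 of 348). Right of them, from 17 Mb on, 1 of 47 regions was broad (2.13%, interval 0.0539 to 11.3%). In strength classes 1 to 4, 17 of 291 regions in the intervals were broad (5.84%, 3.44 to 9.19%), against 65 of 422 on the rest of the chromosome (15.4%, 12.1 to 19.2%). In classes 5 to 10 neither had any, with median widths of 97.0 bp in the intervals and 203 bp on the rest of chromosome IV. The broad regions of the intervals had a median −log10 q of 15.9 on the left and 32.1 on the right, against 20.5 between the intervals and 17.1 left of them. Both replicates overlapped all 17, as they did 41 of the 42 between the intervals and all 22 left of them. The widest of the 17 in the intervals spanned 2078 bp from 14032586 to 14034663.

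**Figure D2:**
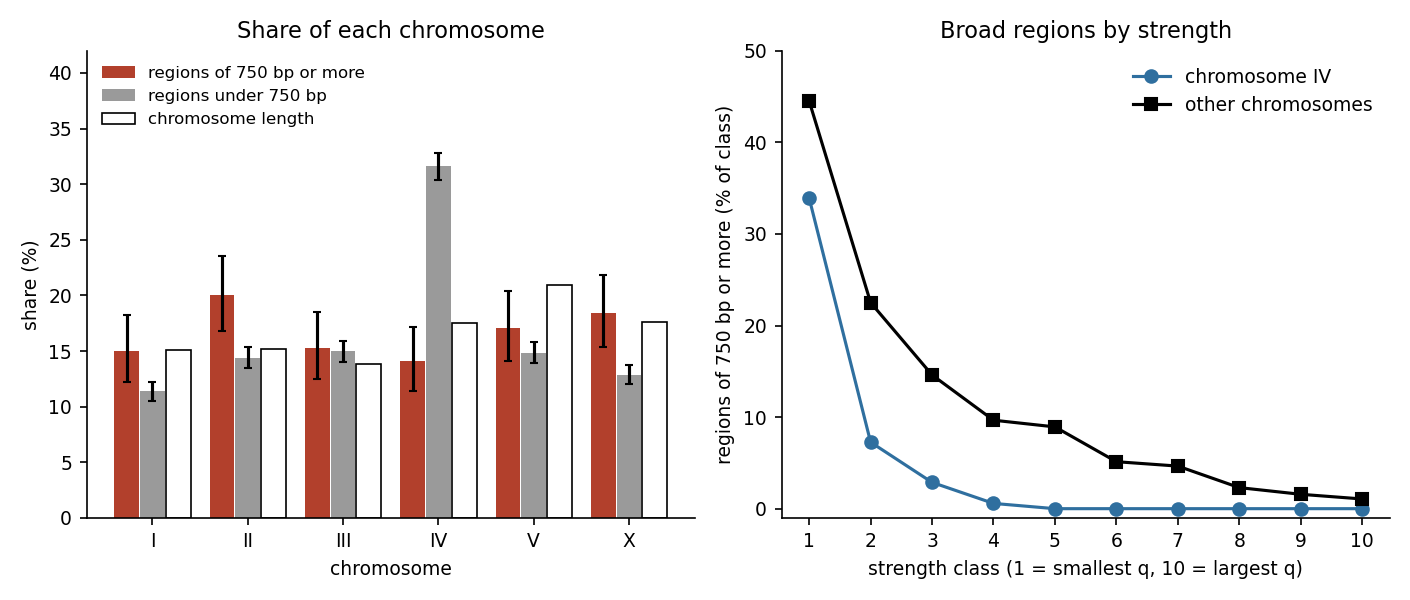
Left, the share in percent of broad regions, of narrower regions (error bars, exact 95% intervals) and of called length on each chromosome. Right, the percent of combined regions that were broad in each strength class, on chromosome IV and on the other chromosomes; chromosome IV has 31.6% of narrower but 14.1% of broad regions, and its line reaches 0 from class 5 on.

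The spacing of broad regions was uneven. The gap from edge to edge to the next broad region had a median of 37.9 kb and quartiles of 4.56 and 104 kb, and the called length came to 173 kb for each broad region. The median depends on the list and the width limit. It was 65480 bp among the regions of 750 bp or more in the replicate 1 list and 91276 bp in the replicate 2 list, and in the combined list 78270 bp from a width of 1000 bp and 10436 bp from 500 bp. The nearer of the neighbours on either side is closer than this average in any uneven spread, and no test was made. Another broad region lay within 20 kb for 240 (41.4%, interval 37.3 to 45.5%), within 5 kb for 153 (26.4%) and within 1 kb for 78 (13.4%). At the other end, a region of 858 bp on chromosome II from 122007 to 122864 had its next broad neighbour 962 kb away. On chromosome IV the median gap was 71.9 kb and 26 of 82 had a broad neighbour within 20 kb (31.7%, 21.9 to 42.9%), against 31.0 kb and 214 of 498 elsewhere (43.0%, 38.6 to 47.5%), although the shares within 5 kb were 25.6% and 26.5%. Chromosome IV also had the lowest density, at 4.69 per Mb. On chromosome V, with 4.74 per Mb, the median gap was 48428 bp, and on the remaining chromosomes it was 25208 to 29628 bp. Regions of any width were also close to many broad ones. Another combined region of any width lay within 1 kb of 228 broad regions (39.3%, 35.3 to 43.4%) and of 1170 narrower regions (20.8%, 19.8 to 21.9%), with 22.6% over the whole list. This difference was not tested.

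**Figure D3:**
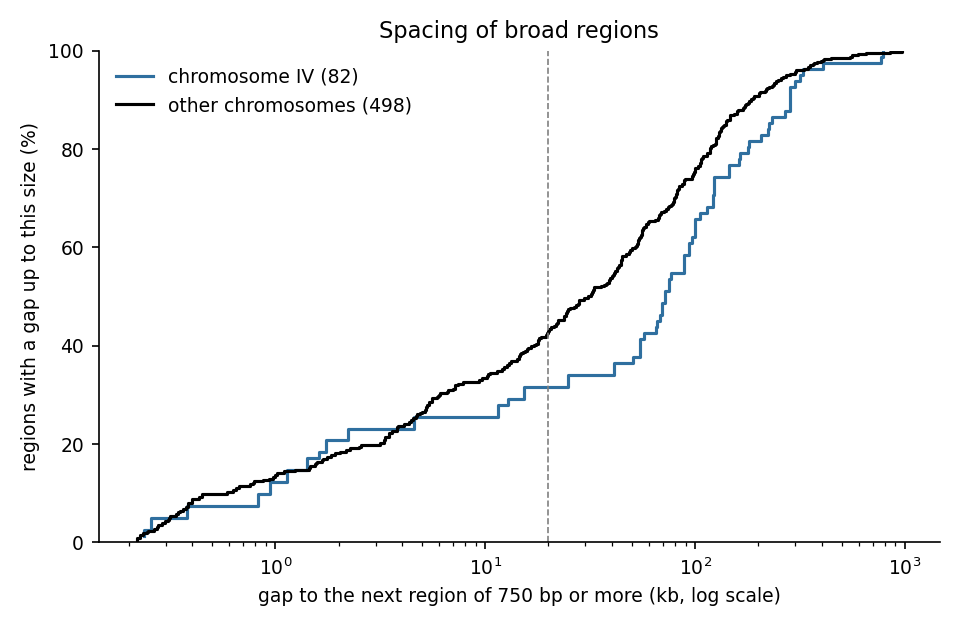
The cumulative percent of broad regions by the gap in kb (log scale) to the next broad region, for the 82 on chromosome IV and the 498 on other chromosomes; the dashed line marks 20 kb. The lines run together up to about 5 kb and then separate, with 31.7% of chromosome IV regions and 43.0% of the others at 20 kb.

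Chained by gaps of at most 20 kb, 240 broad regions formed 99 groups. Of these 70 were pairs, 21 held 3 regions, 5 held 4, 1 held 5 and 2 held 6. A group of 6 lay on chromosome II from 10541900 to 10559272, where 6 of 8 combined regions in 17.4 kb were broad, with widths from 877 to 2394 bp. Their −log10 q were modest, between 2.93 and 14.2, and both replicates overlapped 4 of the 6. The other group of 6 lay on chromosome X from 15339607 to 15374052, where 6 of 10 combined regions in 34.4 kb were broad, at 799 to 1355 bp. A group of 5 lay on chromosome I from 7474709 to 7519122, and both replicates overlapped all of them. The bin with the most broad regions was 15 to 16 Mb of chromosome X, with 16 of 108 combined regions, followed by 6 to 7 and 8 to 9 Mb of chromosome II, with 13 each. From 13 to 17 Mb of chromosome X the density was 8.75 per Mb, against 5.31 per Mb from 0 to 13 Mb, but the share of regions that were broad was 11.1% (35 of 314) against 14.2% (69 of 486).

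Most broad regions were seen by both replicate lists. Regions of both overlapped 444 of 580 by at least 1 bp (76.6%, interval 72.9 to 79.9%), where the background over all combined regions was 35.2%. Replicate 1 overlapped 522 of the 580, where its background was 63.3%, and replicate 2 overlapped 462 (79.7%, background 41.3%). A further 78 were overlapped by replicate 1 only (13.4%, background 28.1%), 18 by replicate 2 only (3.10%, background 6.09%) and 40 by neither (6.90%, background 30.7%). Strength goes along with this. In class 1 both lists overlapped all 256 broad and all 364 narrower regions, and in class 2 99.1% of broad and 97.2% of narrower ones. In class 3 the shares were 74.3% (52 of 70) for broad and 83.6% (459 of 549) for narrower regions, in class 4 45.5% and 49.0%, and in class 5 11.1% (4 of 36) and 19.6% (114 of 583). From class 3 to class 5 the share was thus lower for broad than for narrower regions. A wide span has more room for a 1 bp overlap. In class 2 the share was higher for broad regions. The same held in class 6, at 4.76% (1 of 21) for broad and 3.67% (22 of 599) for narrower regions. These differences were not tested.

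Nearly every broad region of chromosome IV was seen by both replicates. Both lists overlapped 81 of its 82 broad regions (98.8%, interval 93.4 to 100.0%) and 363 of the 498 elsewhere (72.9%, 68.8 to 76.8%). The mix of strengths differed, since 63 of the 82 on chromosome IV and 193 of the 498 elsewhere were in class 1. Both lists overlapped all of these. In class 2 they overlapped 13 of 13 on chromosome IV and 98 of 99 elsewhere, in class 3 5 of 5 and 47 of 65, and in class 4 0 of 1 and 20 of 43. The exception on chromosome IV was a region of 822 bp from 12036336 to 12037157, with a −log10 q of 5.49, which neither list overlapped. On chromosome X both lists overlapped 69.2% of the broad regions and on chromosome I 70.1%. The widest regions that neither list overlapped were 1958 bp on chromosome V from 725317 to 727274, with a −log10 q of 4.29, 1428 bp on chromosome II from 6828138 to 6829565, with 3.67, and 1394 bp on chromosome I from 9789969 to 9791362, with 3.97. Regions of 1376 bp on chromosome I from 7147630 to 7149005 (2.91) and of 1353 bp on chromosome X from 11481783 to 11483135 (3.70) followed.

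Being overlapped did not mean being called at full width. A span was taken as called in a single wide region if exactly 1 replicate region overlapped it and covered at least 80% of its bases. In replicate 1 this held for 271 spans (46.7%, interval 42.6 to 50.9%, background 44.3% of all combined regions). In replicate 2 it held for 221 (38.1%, 34.1 to 42.2%, background 28.5%). These backgrounds include the regions that a list did not overlap at all. Among overlapped regions the broad share was the lower one in both lists. It was 271 of 522 in replicate 1, against 2745 of 3917 for combined regions of any width. In replicate 2 it was 221 of 462, against 1762 of 2556. This was not tested. A single region that covered less was seen for 182 spans in replicate 1 (31.4%) and 199 in replicate 2 (34.3%), against backgrounds of 17.7% and 12.1%. Several pieces were called in 69 spans in replicate 1 (11.9%, 9.38 to 14.8%, background 1.18%) and in 42 in replicate 2 (7.24%, 5.27 to 9.66%, background 0.678%). Narrower regions have little room for pieces at least 200 bp apart, so nothing is read from the last pair of backgrounds. No region was called in 58 spans in replicate 1 (10.0%) and in 118 in replicate 2 (20.3%), against backgrounds of 36.7% and 58.7%.

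The lists gave the same call to 299 of the 580 spans (51.6%, interval 47.4 to 55.7%). Both called a single wide region in 140, a single partial region in 90, several pieces in 29 and no region in 40. Replicate 1 called a single wide region where replicate 2 called a partial one in 82 spans, and the reverse was seen in 55. In 18 spans replicate 1 gave pieces and replicate 2 a single wide region, and in 8 it was the other way round. Covered share is the part of the bases of a span that lay in replicate regions, and is 0% where none was called. Its median was 79.4% in replicate 1 (quartiles 56.3 and 93.0%) and 69.8% in replicate 2 (34.9 and 89.4%). Across the 580 regions the covered shares of the replicates were weakly related (Spearman's rho 0.288, a description), and the covered share was higher at greater strength in the combined list, with a rho of 0.404 in replicate 1 and 0.606 in replicate 2.

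Pieces were more frequent in wider spans, but outnumbered the other calls only from 3000 bp on. They depend on the gap that separates regions, since joining replicate regions within 500 bp left 1.55% of all broad spans in pieces in replicate 1 and 1.03% in replicate 2. Of the 309 spans from 750 to under 1000 bp, replicate 1 called 4.21% and replicate 2 called 2.27% in several pieces. From 1000 to under 1500 bp (177 spans) these shares were 12.4% and 5.65%, from 1500 to under 2000 bp (48 spans) 25.0% and 14.6%, and from 2000 to under 3000 bp (34 spans) 35.3% and 29.4%. Of the 12 spans of 3000 bp or more, replicate 1 called 10 and replicate 2 called 8 in pieces, and each called 1 as a single wide region. The share called in a single wide region was, from the narrowest class to the widest, 54.7, 42.9, 33.3, 26.5 and 8.33% in replicate 1 and 41.7, 37.3, 31.2, 29.4 and 8.33% in replicate 2. Median covered share over all spans changed little over the same classes, at 71.2 to 82.6% in replicate 1 and 68.2 to 75.9% in replicate 2. Spans with no region count as 0% covered there. In the narrowest class they were 12.3% in replicate 1 and 25.9% in replicate 2, and in the widest 0% in both. These medians therefore do not show how coverage of called spans changed with width. A single partial region was as common as pieces or commoner up to 3000 bp. Its share was 39.6% in replicate 1 and 50.0% in replicate 2 from 1500 to under 2000 bp, and 35.3% in each from 2000 to under 3000 bp.

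**Figure D4:**
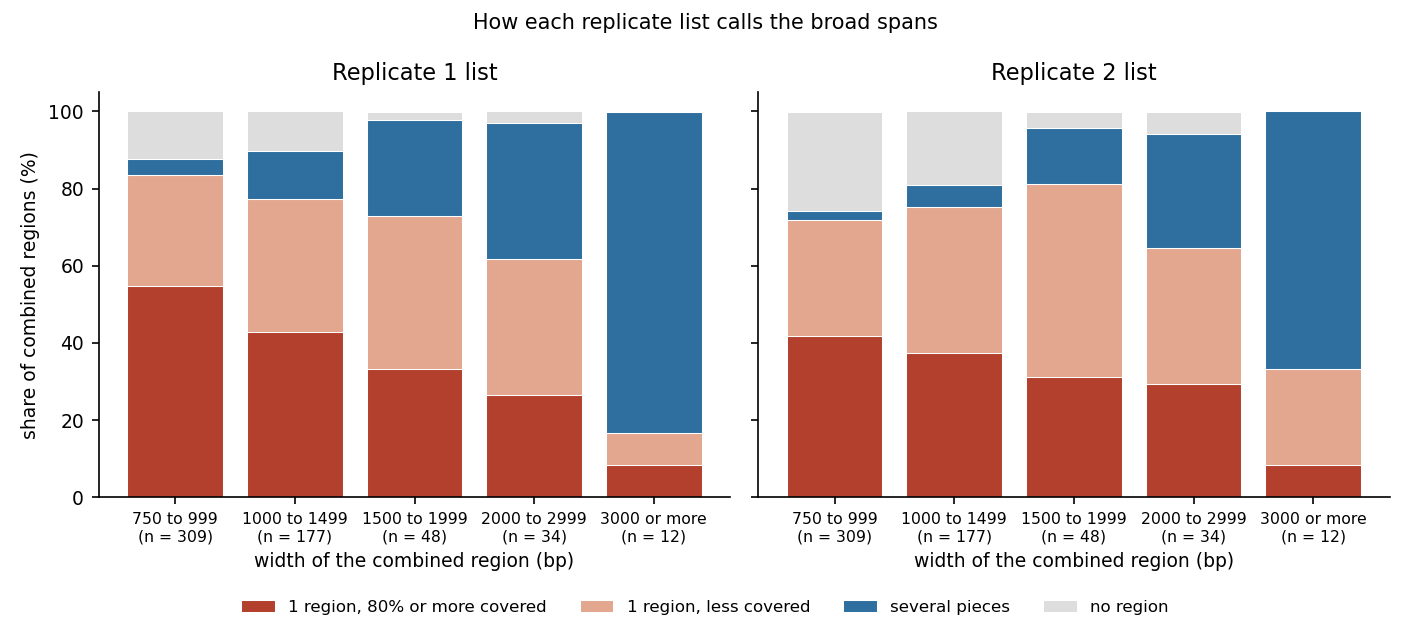
Bars give the percent of broad combined regions, by width class in bp, that each replicate list called as 1 region covering 80% or more, as 1 region covering less, in several pieces or not at all. Pieces rise from 4.21% to 83.3% of spans in replicate 1 and from 2.27% to 66.7% in replicate 2.

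Interruptions were short. In replicate 1, 58 spans had 2 pieces and 11 had 3, which left 80 gaps with a median of 275 bp (quartiles 233 and 375 bp) and a longest of 1464 bp. In replicate 2, 39 spans had 2 pieces, 2 had 3 and 1 had 4, and the 46 gaps had a median of 306 bp (236 and 379 bp) and a longest of 1193 bp. The shortest gaps were 200 and 201 bp, and no list held regions closer than 200 bp to each other, so shorter dips could not appear as gaps. Of the 80 gaps in replicate 1, 45 were under 300 bp, as were 21 of the 46 in replicate 2. In the 29 spans that both lists broke, 25 had at least 1 replicate 1 gap that overlapped a replicate 2 gap by 1 bp or more. Such an overlap was seen for 27 of the 38 replicate 1 gaps in these spans. How many gaps of these lengths would overlap at random places was not tested. Spans left in several pieces had a median −log10 q of 22.1 in replicate 1 and 28.9 in replicate 2. For spans in a single wide region it was 16.4 and 18.7, and for those in a single partial region 10.1 and 12.9. The spans in pieces were also wider, with median widths of 1489 and 1704 bp. The medians were 936 and 939 bp for a single wide region and 1004 and 1017 bp for a single partial one. Median strength rose with width, and whether strength differed apart from width was not tested.

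The edges of single replicate regions lay mostly inside the combined span. In replicate 1, 376 of 453 were wholly inside it, starting a median of 39.0 bp after the start of the span, with an end offset of -41.0 bp. In replicate 2, 338 of 420 were inside, with medians of 57.0 bp and -63.0 bp. Combined and replicate edges coincided to the base in a minority, with the start shared by 32 and the end by 39 in replicate 1 and by 16 and 25 in replicate 2. Few wide replicate regions were missed by the combined width. Of the 312 regions of 750 bp or more in replicate 1, 300 overlapped a broad combined region, 11 only narrower ones and 1 none, and of the 260 in replicate 2 the counts were 249, 10 and 1. The last of each lay at the same place of chromosome II (5543219 to 5544605 in the replicate 1 list, 5543178 to 5544535 in the other), which overlapped no combined region analysed here. Its −log10 q, 265 in the replicate 1 list and 234 in the other, was the highest of either list, so the number of broad regions and the ranks by strength refer to the combined regions analysed here.

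The widest spans show the patterns of breaking. The 5981 bp region of chromosome V was called in 3 pieces of 1596, 1409 and 1417 bp in replicate 1, with gaps of 948 and 213 bp, and in 2 pieces of 2324 and 3177 bp in replicate 2, with a gap of 233 bp. These covered 73.9% and 92.0% of it, and the first gap of replicate 1 overlapped the gap of replicate 2. The strongest piece had a −log10 q of 20.3 in replicate 1 and 22.9 in replicate 2, against 76.0 for the whole span in the combined list. The 5188 bp region of chromosome I was called in pieces of 2791, 1561 and 951 bp in replicate 1, the first of which began before the span, at 5374244, and also overlapped the neighbouring region of 832 bp from 5374007 to 5374838. Replicate 2 gave pieces of 2677 and 1032 bp there, with a gap of 1193 bp.

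Other wide spans were covered in part only. The 4883 bp region of chromosome I held a single region of 2016 bp in replicate 1 and of 1298 bp in replicate 2, which covered 41.3% and 26.6% of it around its middle. The 3897 bp region of chromosome I from 7656534 to 7660430 was called in 3 pieces in replicate 1 (69.2% covered) and in a single region of 1155 bp in replicate 2 (29.6%), which covered the second piece of replicate 1 and part of the gap on either side of it. On chromosome IV, the 4609 bp region from 17277147 to 17281755 was called as a pair of pieces in both lists. The gaps, of 646 bp in replicate 1 and 278 bp in replicate 2, overlapped. The 4042 bp region of chromosome III from 9050942 to 9054983 had 3 pieces in replicate 1 but a single region of 3286 bp in replicate 2, the widest region of that list, which covered 81.3%.

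The strong region of chromosome IV from 9510432 to 9514460 was called as a single region in 1 list and in 4 pieces in the other. Replicate 1 called 3896 bp as a single region, the widest of its list, with a −log10 q of 200, which covered 96.7% of the span. Replicate 2 called 4 pieces of 375, 1167, 1390 and 227 bp, with gaps of 226, 328 and 269 bp, and these pieces had −log10 q of 3.23, 148, 25.6 and 2.23. The strongest piece in replicate 2 was thus the second, from 9511080 to 9512246. Spans with 3 pieces in both lists were those of chromosome V from 19519492 to 19523221 (3730 bp, 59.9% covered in replicate 1 and 61.6% in replicate 2) and of chromosome IV from 4469713 to 4472096 (2384 bp, 71.6% and 64.8%). In that of chromosome V both gaps of replicate 1 met gaps of replicate 2. A region of 2296 bp on chromosome II from 13297491 to 13299786 had 3 pieces in replicate 1 and a pair in replicate 2, and there no gap was shared.

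The remaining spans of 3000 bp or more were broken as well. Those of 3877 bp on chromosome V from 14685578 to 14689454 and of 3351 bp on chromosome II from 14404890 to 14408240 were covered to 54.0% and 73.2% in replicate 1 and to 90.8% and 86.9% in replicate 2. On chromosome X, the region of 3424 bp from 10765520 to 10768943 had 3 pieces in replicate 1 and a pair in replicate 2 (53.0% and 63.6% covered). The region of 3536 bp from 6739049 to 6742584 had a pair of pieces in replicate 1 and a single region of 2405 bp in replicate 2 (55.4% and 68.0%), with −log10 q of at most 5.50 and 3.46. Of the 5 strongest broad regions, the other 4 were each called as 1 region in both lists, covering 76.0 to 100% of the span in replicate 1 and 75.6 to 100% in replicate 2.

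**Figure D5:**
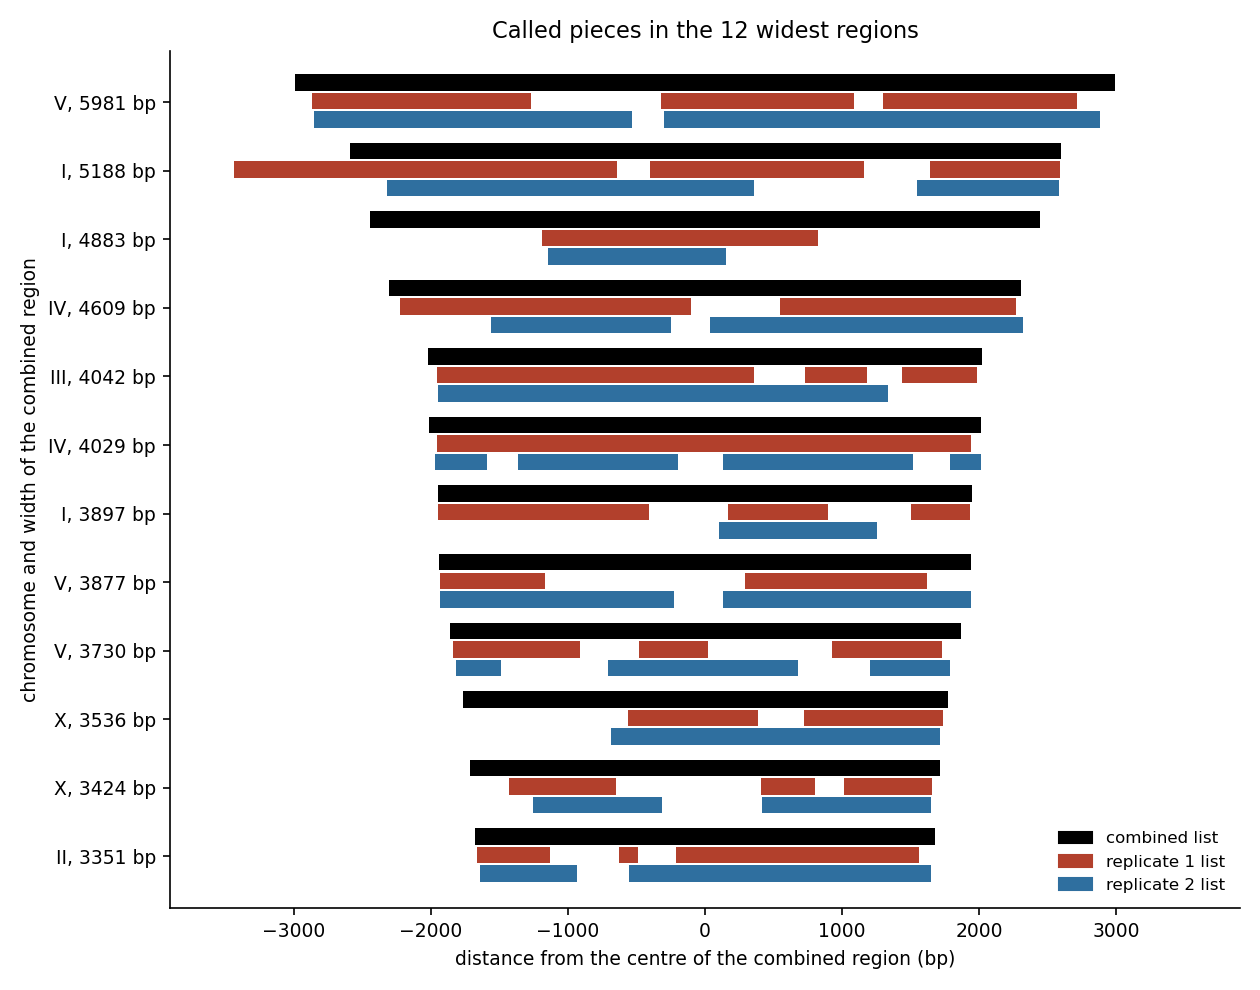
The 12 widest combined regions (black) with the replicate 1 (red) and replicate 2 (blue) regions that overlap them, by distance in bp from the centre of the combined region. Replicate 1 breaks 10 of the 12 spans and replicate 2 breaks 8. In each span that both break, a replicate 1 gap overlaps a replicate 2 gap by 1 bp or more.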

How the data were processed

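Region lists were read as deposited. Per the file headers and source column, the authors called regions with PeakSeq, gave each a q-value (all below 0.01; the largest was 0.00996) and used the WormBase WS220 genome. Comments in the combined list record a move of coordinates between builds that changed the shape of 4 regions, 1 of them broad. Per the deposited sample sheet, counts of total reads of 36 bases belong to each library, the combined list came from merged ChIP alignments, and uniquely mapped reads, which look rounded, were 2500000 and 2800000 in ChIP replicates 1 and 2 and 6000000 in each input library. The sources used here do not give the aligner or tool versions.

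Widths are end minus start plus 1, and coordinates count from 1. Overlap needed 1 bp. Called length is the end of the last region on each chromosome in any of the 3 lists. The region classes, the 80% and 20 kb limits and the piRNA intervals were chosen with earlier results of these data known. Named regions are the 12 widest, the 5 strongest, those with most pieces, the widest 5 seen by neither replicate, 3 on each side of 750 bp, the 3 largest groups of neighbours and the widest of each chromosome, with further ones chosen after their values were seen. Functions were tested on simulated lists. No genome or annotation of WS220 was used here, so no gene or sequence is given for a region. Work was done in Python 3.11.15 with pandas 2.3.3, numpy 2.4.6, scipy 1.17.1 and matplotlib 3.10.9.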

Additional observations from a re-analysis of the deposited data

How the results depend on the processing

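Of 79 alternatives to 11 values, 35 stayed within the main exact 95% interval (for the number of regions, within 1.5 times) and 44 moved. The 13 that left out regions changed by the move of build or kept the 620 strongest regions (class 1) were chosen after seeing the data. From 1000 bp, 271 regions were broad, 83.8% seen by both replicates, 37.6% and 33.9% called as a single wide region in replicates 1 and 2, 20.7% and 12.9% in pieces, the covered share in replicate 1 was 75.7%, the median gap 78270 bp and 30.6% had a neighbour within 20 kb. From 500 bp these were 1460 regions, 66.1%, 53.2% (replicate 1), 4.93% and 2.88%, 82.6%, 10436 bp and 62.8%. With q at most 1e-05 in every list, 53.5% were seen by both, 31.6% called as a single wide region in replicate 2, 4.13% and 3.31% in pieces, covered shares were 74.8% and 49.4%, the median gap 50014 bp and 36.4% had a neighbour; weaker pieces are dropped there by construction. Joining replicate regions within 500 bp gave 56.6% and 44.1% as a single wide region and 1.55% and 1.03% in pieces, and joining within 100 bp changed nothing, since no gap was under 200 bp. A covered share of 50% gave 68.3% and 60.0% as a single wide region, and 90% gave 31.6% and 22.8%. Neighbours within 5 and 50 kb were found for 26.4% and 56.4%. In class 1 both replicates saw 100% and chromosome IV held 24.6% of the 256 broad regions. It also held 186 of the 620 regions of any width in that class. Of these 33.9% were broad, against 44.5% of the 434 elsewhere. With a single replicate list there were 260 to 312 broad regions, with a median gap of 65480 to 91276 bp, neighbours for 28.1% to 34.9% and a chromosome IV share of 14.2% to 14.4%, and a single list overlapped 79.7% to 90% of broad combined regions. Except in class 1, the chromosome IV share stayed within its main interval in every alternative run. The cause of the other moves was not tested. No paired analysis was possible because no list gives separate values for input DNA. How far depth limits the calls was not tested; the list of replicate 2, with more uniquely mapped reads, was the shorter, and a span without a replicate region is only one where none was called.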

Other observations

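Width depends on how far apart regions had to be to be listed separately. When combined regions within 500 bp of each other were joined, 321 runs of several regions formed, and 275 of them reached 750 bp. Of these, 177 held no broad region, and 76 of the 177 lay on chromosome IV. That chromosome held 31.6% of the narrower regions and 30.0% of all combined regions, and the difference was not tested. Runs of short separate regions thus reached the width of a broad region there as well. The width of a run includes the uncalled gaps, each at least 200 bp long. Another 98 runs held a broad region, and 27 held at least a pair of them. The longest run covered 8118 bp on chromosome I from 5372155 to 5380272 and joined 3 broad regions of 1626, 832 and 5188 bp. On chromosome X the regions of 3536 and 2809 bp stood 298 bp apart and made a run of 6643 bp from 6739049 to 6745691, although neither passed a −log10 q of 10.9. A run of 4 broad regions on chromosome II from 10545840 to 10552416 spanned 6577 bp, with a highest −log10 q of 13.2.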
